A study of Bos taurus with 2 samples.

Results

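The messenger RNAs described here belong to 10 genes of prolactin and STAT5 signalling, out of 15715 named genes on a bovine expression array. The genes were taken by symbol, and all of their probes that were not control spots were used. The genes are the receptors PRLR and GHR, the kinase JAK2, the transcription factors STAT5A, STAT5B, STAT3 and ELF5, and the inhibitors SOCS2, SOCS3 and CISH. They have 22 probes among the 43652 of the array, each printed on 1 spot. The samples were 2 fractions of whey from Holstein raw milk, on 1 array each. The fraction that the submitters call exosome, a name for small vesicles released by cells, is what pelleted in 90 min at 10000 g, as the labels give the speed, and was washed in 2 further spins. The other fraction is the liquid left above it. Equal amounts of total RNA from 3 milk samples were pooled for each fraction, and 100 ng of the pool was labelled with the dye Cy3. No treatment, age or stage of lactation of the cows was given in the sources used here.

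Prolactin secreted by the pituitary binds its receptor on mammary epithelial cells, and the kinase JAK2 bound to that receptor phosphorylates STAT5, which enters the nucleus and switches on milk protein genes. Growth hormone acts through a related receptor and the same kinase. SOCS proteins and CISH are made in response to STAT5 and damp the signal, while STAT3, a relative of STAT5, is known for its part in the regression of the gland after lactation. ELF5 is an ETS-family transcription factor of the milk-secreting alveolar cells and acts together with STAT5.

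The probes are 60-base DNA oligonucleotides, and those that the results turn on are given 5′ to 3′ in lower case. Capitals mark runs of at least 3 G. Across the array 37.7% of the 1256 probes holding 5 G in a row were well above background in the supernatant, against 12.4% of the other probes. That share was not counted for shorter runs, and no probe printed here holds 5 G in a row. Coordinates are in build HGSC Btau_3.1, and positions count along the transcript that the array's design names. Both ELF5 probes and the pair of STAT5A probes are shown because these genes supplied the only supernatant signals of the group that were well above background, and one probe each of PRLR, JAK2 and SOCS3 is shown for comparison.
ELF5, position 671, chr15:64735698-64735757, minus strand: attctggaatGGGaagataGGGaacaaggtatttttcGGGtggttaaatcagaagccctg
ELF5, position 521, chr15:64736777-64743285, minus strand: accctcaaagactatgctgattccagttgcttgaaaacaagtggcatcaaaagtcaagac
STAT5A, position 2271, chr19:43747685-43748744, plus strand: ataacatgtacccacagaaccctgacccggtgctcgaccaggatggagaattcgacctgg
STAT5A, position 545, chr19:43734488-43734547, plus strand: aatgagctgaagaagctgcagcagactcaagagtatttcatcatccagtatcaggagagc
PRLR, position 365, chr20:41476737-41476796, plus strand: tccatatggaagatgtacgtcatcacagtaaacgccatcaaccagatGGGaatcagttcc
JAK2, position 2548, chr8:41561113-41564922, minus strand: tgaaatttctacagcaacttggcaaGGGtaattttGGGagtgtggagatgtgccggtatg
SOCS3, position 585, chr19:55418135-55418194, plus strand: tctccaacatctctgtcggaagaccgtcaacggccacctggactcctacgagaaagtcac
The second ELF5 probe covers 6509 bases of genome, the first STAT5A probe 1060 and the JAK2 probe 3810, so each of these crosses at least one intron and matches spliced RNA. Whether the other probes lie in coding or untranslated sequence was not analysed here. The STAT5A probe at position 545 is listed by the array's design under transcripts of both STAT5A and STAT5B, so its signal may come from either gene. GC content ran from 25% to 55% over the 22 probes, with a median of 45%, the same as the median of all probes. The SOCS2 probe is the only one of the 22 with a run of 5 G.

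The exosome pellet held detectable RNA of 9 of the 10 genes, and the supernatant of 2 of them, ELF5 and STAT5A. A gene counted as detected where the scanner software called any of its probes well above background. Among all named genes the share detected was 69.4% for the pellet and 23.0% for the supernatant, so the count for the supernatant lay near the background. Detection by the exosome array alone held for 7 of the 10 genes, against 47.5% of named genes, and SOCS3 on neither, against 29.6%. By probe, 19 of 22 (86.4%) were well above background in the exosome pellet, against 58.5% of all probes, and 2 of 22 (9.09%) in the supernatant, against 13.1%. With 1 array per fraction there are no replicates, no difference has a test, and the spread within a fraction is unknown. Errors below are the scanner software's estimate for a single spot and leave out the spread between milks and preparations. The arrays measure the bulk RNA of 2 fractions of whey, so they do not tell how many source cells gave it or how much each gave.

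A few facts of the arrays bear on every value. The lowest signal called well above background was 11.3 for the pellet and 9.04 for the supernatant, and the 99th percentile of 153 negative control spots was 7.85 and 4.32. The exosome array was brighter in general: over the 3379 named genes with a probe detected on both arrays, the median gene's exosome signal was 11.4-fold its supernatant signal, a log2 difference of 3.51. For 8 spike-in control probes the median log2 difference before scaling was 2.27, with the higher signals on the exosome side. Array scaling therefore decides the sign of a moderate difference. Folds and bounds given before scaling include any such shift between the arrays. How much of them reflects RNA content was not tested. The scales used are 3: the log2 difference before scaling, the difference after each array's 75th percentile over 5307 probes detected on both was subtracted (which lowers every difference by 5.45), and the difference relative to the median gene, which no constant scaling moves. Probes bind with different strength, so signals of different probes are not ranked against each other. Different probes of 1 gene gave log2 differences that varied with an SD of 1.72 (533 genes), while spots of 1 probe varied with an SD of 0.18 (9 probes printed on 4 spots).

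**Figure D1:**
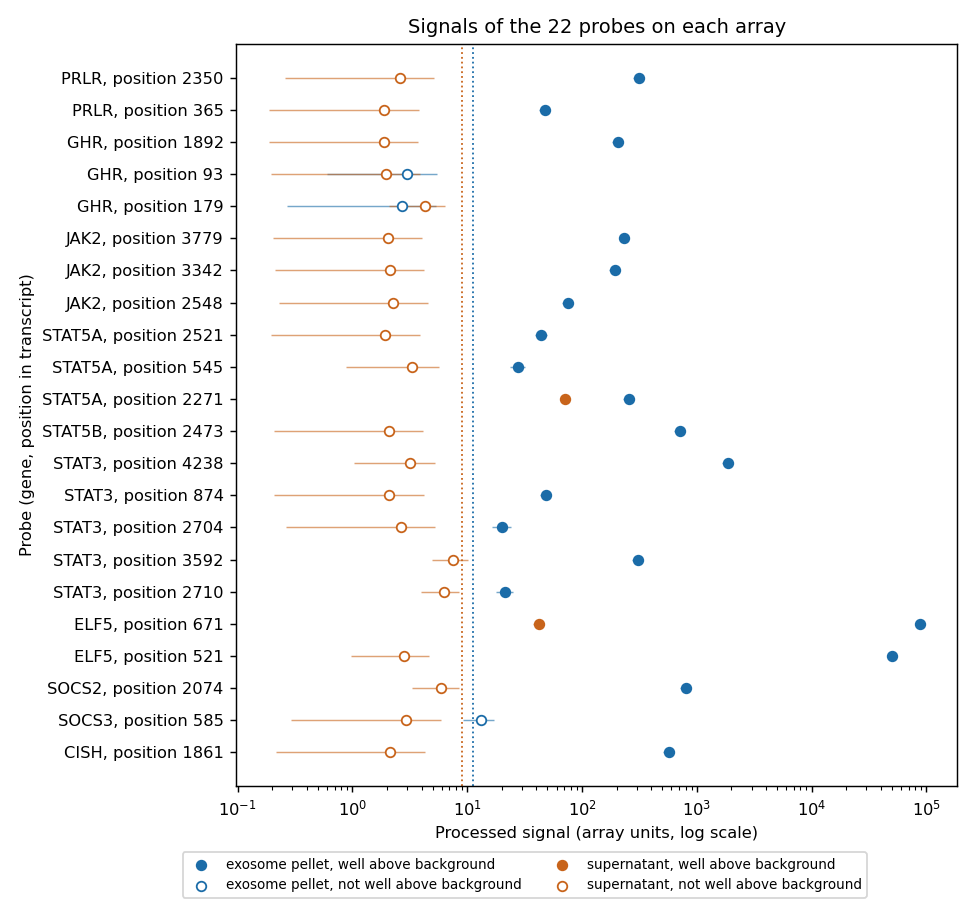
Processed signal, in array units on a log axis, of each of the 22 probes for the exosome pellet (blue) and the supernatant (orange), with the software's error as bars, whose lower ends are cut short where they would come near 0. Filled points were well above background, and dotted lines mark the lowest such signal on each array, 11.3 and 9.04. Filled orange points appear only for STAT5A at position 2271 and ELF5 at position 671.

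Both receptors of the pathway were found in the pellet alone. The prolactin receptor PRLR, which starts STAT5 signalling in the gland, was read by a probe at position 2350 (chr20:41493910-41493969) with a signal of 311 ± 31.3 in the pellet and 2.57 ± 2.57 in the supernatant. The PRLR probe at position 365, shown above and designed on a second transcript variant, gave 47.7 ± 5.35 and 1.89 ± 1.89. Both supernatant values equal their own error, so no PRLR signal was detectable there. The exosome signals were at least 34.5-fold and 5.28-fold higher than the supernatant before scaling, where a bound sets the exosome signal against the lowest well-above-background signal of the supernatant array or, if higher, the probe's own signal there. After scaling both bounds were under 1, so neither array can be called higher on that scale.

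The growth hormone receptor GHR had 1 detected probe of 3. At position 1892 (chr20:33896819-33896878) its signal was 204 ± 20.6 in the pellet and 1.88 ± 1.88 in the supernatant, at least 22.6-fold higher before scaling. The other GHR probes were designed on transcript variants that differ at their 5′ end, and overlap each other over 54 bases with 2 differing bases. At position 93 of its variant the signals were 3.01 ± 2.42 and 1.94 ± 1.94. At position 179 of the other variant they were 2.68 ± 2.67 and 4.26 ± 2.20. All 4 signals lay under the 99th percentile of the negative controls of their array, and none was called well above background. The first passed the software's weaker flag, described below, in the pellet alone and the second in the supernatant alone.

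All 3 probes of JAK2, the kinase that both receptors use, were well above background in the pellet and none was in the supernatant. The signals at position 3779 (chr8:41547557-41547616) were 234 ± 23.6 and 2.04 ± 2.03. At position 3342 (chr8:41548223-41548282) they were 193 ± 19.4 and 2.12 ± 2.12. The probe across an intron, at position 2548, gave 75.1 ± 8.05 and 2.28 ± 2.27. The bounds before scaling were 25.9-fold, 21.3-fold and 8.31-fold, and all were under 1 after scaling, so JAK2 was measurable in the pellet and is undecided on the scaled comparison.

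ELF5 had the wider difference of the 2 genes measured on both arrays. Its probe at position 671 gave 87883 ± 8788 in the pellet and 42.1 ± 4.58 in the supernatant, both well above background. The exosome signal was 2090-fold higher before scaling, a log2 difference of 11.03 ± 0.21 (error from the software's spot errors), and 47.6-fold higher after it. Relative to the median gene the difference was 7.52. Of the 3379 genes measured on both arrays, 34 had a larger difference and 3344 a smaller one. The ELF5 difference kept its direction under every scaling, background correction and filter tried, with values from 4.73 after quantile normalization to 11.03 without scaling.

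The second ELF5 probe, at position 521, gave 50682 ± 5068 in the pellet and 2.81 ± 1.84 in the supernatant, which was not well above background. Its exosome signal was at least 5607-fold higher before scaling and at least 128-fold after it, a difference of at least 8.95 (log2) relative to the median gene. This bound lies above the value measured with the other ELF5 probe, so the probes differ in size and not in direction. The detection of ELF5 in the supernatant rests on the probe at position 671 alone.

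STAT5A was the other gene detected on both arrays, also by a single probe. The probe at position 2271, which crosses an intron, had a signal of 255 ± 25.7 in the pellet and 71.8 ± 7.53 in the supernatant. The exosome signal was 3.55-fold higher before scaling (log2 difference 1.83 ± 0.21), but the difference was -3.63 after scaling and -1.68 relative to the median gene, so the side on which STAT5A lies depends on the scaling. With spike-in scaling the difference was -0.44. Relative to the median gene it was inside 2-fold with normexp background correction (-0.93) and with the weaker flag (-0.95), and on the exosome side, at 0.23, without a filter on dim probes. It stood below 2463 of the 3379 measured genes and above 915. No other probe of the group but that of ELF5 gave a supernatant signal well above background.

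The other STAT5A probes had no supernatant signal well above background. At position 2521 (chr19:43748935-43748993) the signals were 44.2 ± 5.06 and 1.93 ± 1.93, at least 4.89-fold higher in the pellet before scaling. At position 545, the site shared with STAT5B, they were 27.7 ± 4.00 and 3.28 ± 2.39, at least 3.07-fold higher. Relative to the median gene the lower bound at position 2521 was -1.21, above the -1.68 measured at position 2271, and the size of that gap has no upper limit.

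STAT5B, the close relative of STAT5A encoded next to it, was read by 1 probe at position 2473 (chr19:43655286-43655345, minus strand). Its signal was 708 ± 70.9 in the pellet and 2.07 ± 2.06 in the supernatant. The pellet was at least 78.3-fold higher before scaling and at least 1.79-fold after it, under the 2-fold call. Its bound relative to the median gene was 2.79 (log2), on the opposite side from the STAT5A value of -1.68. That contrast is between single probes of 2 genes and was not tested.

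STAT3 was detected in the exosome pellet by all 5 of its probes and in the supernatant by none. The probe at position 4238 (chr19:43751560-43751619) gave 1860.5 ± 186 and 3.15 ± 2.13, at least 206-fold higher before scaling and at least 4.69-fold after it. At position 3592 (chr19:43752206-43752265) the signals were 305 ± 30.7 and 7.56 ± 2.66, and at position 874 (chr19:43771555-43771614) they were 48.6 ± 5.50 and 2.10 ± 2.09. The pair at positions 2704 and 2710, which overlap over 54 bases with 3 differing bases, gave 20.3 ± 3.78 and 21.4 ± 3.47 in the pellet, and 2.64 ± 2.64 and 6.24 ± 2.25 in the supernatant. Every STAT3 probe was brighter in the pellet, with unscaled bounds from 2.25-fold to 206-fold. The mean bound over the 5 probes was under 1 after scaling. The supernatant signals at positions 3592 and 2710 passed the 99th percentile of the negative controls there (4.32) without being called well above background.

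Of the inhibitors made in answer to STAT5, SOCS2 and CISH were detected in the pellet and SOCS3 in neither fraction. SOCS2, which limits growth hormone signalling, had a signal of 801 ± 80.1 in the pellet and 5.89 ± 2.60 in the supernatant at position 2074 (chr5:26164441-26164500). The pellet was at least 88.6-fold higher before scaling and at least 2.02-fold after it. This is the probe with 5 G in a row, and its supernatant value was above 4.32, the 99th percentile of the negative controls, but not well above background. CISH had 568 ± 56.9 and 2.15 ± 2.14 at position 1861 (chr22:50661539-50661598), at least 62.9-fold higher before scaling and at least 1.43-fold after it. SOCS3, an inhibitor that binds gp130 receptors and JAK kinases, had 13.1 ± 3.95 and 2.94 ± 2.93. The pellet value passed the negative controls' 7.85, and also 11.3, the lowest signal called well above background there, without getting that call itself. SOCS3, read by 1 probe, was thus at the edge of detection in the pellet and not detectable in the supernatant.

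For the 7 genes with a bound, detected in the pellet alone, the median bound was 22.6-fold before scaling, beside 13.9-fold over all 7464 such genes. All 7 bounds passed 2-fold before scaling, as did 94.2% of such genes, so the count is near the background. After scaling 1 of 7, SOCS2, passed 2-fold, against 14.8%. Before scaling, the 2 genes measured on both arrays were both past 2-fold to the exosome side, as were 83.4% of measured genes, and neither to the supernatant side, as were 1.30%. Relative to the median gene ELF5 lay at least 2-fold to the exosome side, as 37.3% of measured genes did, and STAT5A at least 2-fold to the supernatant side, as 36.6% did. After scaling the same split held, against 18.7% and 62.0%. These 2 genes could be measured only because they passed the call in the supernatant, so they do not stand for the 10.

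**Figure D2:**
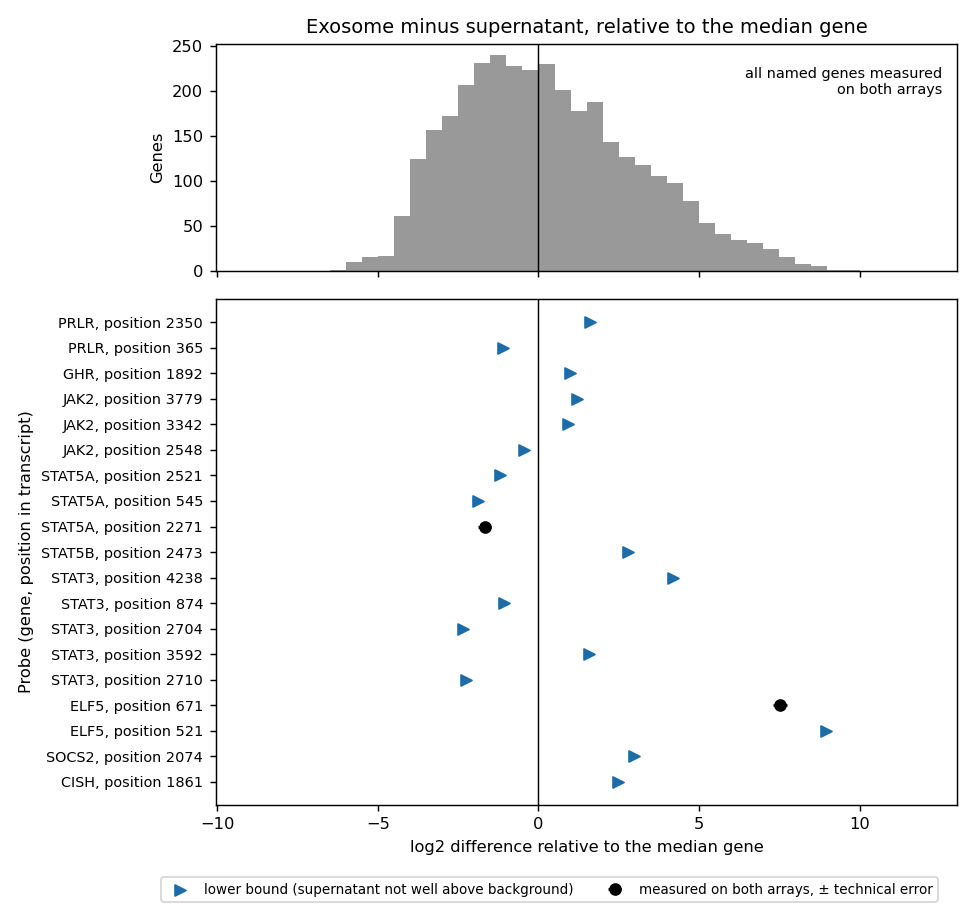
Log2 difference of exosome minus supernatant relative to the median gene. The upper panel is a histogram of the 3379 named genes measured on both arrays, and the lower panel shows the 19 probes of the group detected in the exosome pellet, with black points measured on both arrays (± technical error) and triangles for lower bounds. ELF5 at 7.52 lies in the right tail and STAT5A at -1.68 left of the median gene.

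Across the array, probes with more exosome signal were detected more often in the supernatant, and the group is set beside that background. For exosome signals from 256 to 1024, where single probes of PRLR, STAT5B, STAT3, SOCS2 and CISH lie, 19.8% of 5540 probes were well above background in the supernatant, and 0 of these 5 were. From 64 to 256, 16.7% of 6798 probes were, and 1 of 5 of the group, the STAT5A probe at position 2271. From 16 to 64 the share was 13.9% of 7025 probes, and 0 of 6. The STAT3 probe at position 4238 lay in a range where 28.6% of 3316 probes were detected. Of probes from 65536 to 262144, as ELF5 at position 671, 92.9% of 238 were detected. Of those from 16384 to 65536, as ELF5 at position 521, 69.9% of 396 were. The supernatant call for ELF5 at position 671 is thus what most probes of such exosome signal showed, and the lack of one at position 521 was the rarer outcome.

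**Figure D3:**
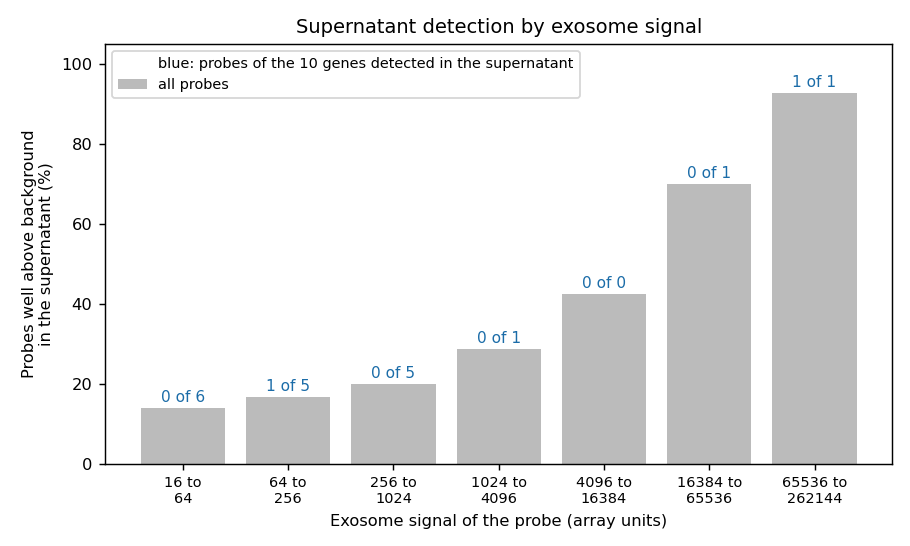
Share of all probes that were well above background in the supernatant (bars, percent), by range of exosome signal in array units, with the count of the group's probes detected there in blue. The share goes from 13.9% at 16 to 64 to 92.9% at 65536 to 262144, and the detected probes of the group are 1 of 5 at 64 to 256 (STAT5A) and 1 of 1 in the brightest range (ELF5).

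With the software's weaker flag, which asks only that a signal be positive and significant over local background, 9 of the 22 probes passed in the supernatant, against 46.5% of all probes, for 5 of the 10 genes, against 66.5% of named genes. These were ELF5 by both probes, STAT5A by 2 of 3, STAT3 by 3 of 5, SOCS2, and GHR by the variant probe at position 179. In the exosome pellet 21 of 22 passed, against 75.7% of all probes, for all 10 genes, against 84.4%. PRLR, JAK2, STAT5B, SOCS3 and CISH had no supernatant probe with even the weaker flag. With a stricter filter, which asks for 4 times the lowest well-above-background signal of the array, 9 of the 10 genes passed in the pellet, against 57.2% of named genes, and ELF5 and STAT5A in the supernatant, against 8.53%. The 20 supernatant signals without the main call ran from 1.88 to 7.56, with a median of 2.43, and 3 of them exceeded the 99th percentile of the negative controls.

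Other genes of the pathway were taken from 8 lists by role. Of 55 on the array, the pellet showed 45 and the supernatant 28, beside 69.4% and 23.0% of all named genes. Measured on both were 27, with a median of 0.42 (log2) relative to the median gene. Of these, 12 lay at least 2-fold to the exosome side of the median gene, against 37.3% of all measured genes. At least 2-fold to its supernatant side lay 7, against 36.6%. The values below are on that relative scale, and a gene below 0 there can still be brighter in the pellet before scaling. Each value covers only the probes well above background on both arrays, so other probes of the gene can differ from it. Bounds are before scaling. After scaling, the median bound of the 18 genes detected in the pellet alone was 0.31-fold, beside 0.32-fold over all such named genes. The scaled bounds of OSMR, LIFR, STAT6, SOCS4, SOCS7, PIAS2, GAB2, PGR and ESR1 were under 1. For these, neither array can be called higher on that scale.

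Of 12 ligands and other cytokine receptors, both arrays measured 3 and neither detected 6, which were growth hormone (GH1), IL6, IL6ST, LIF, OSM and IGF1. PRL, the prolactin gene itself, was well above background by 1 of 7 probes, with signals of 16.2 and 14.0 and a value of -3.30. IL6R stood at -3.19, with signals of 15.4 and 12.4, and its other probe, at 23.4 in the pellet, had no supernatant call. These PRL and IL6R signals lay close to the lowest well-above-background signals of the arrays, 11.3 and 9.04. EPOR stood at -0.71, with signals of 603 and 86.9. OSMR and LIFR were detected in the pellet alone, at least 5.66-fold and 2.43-fold higher before scaling. LEPR was detected in the supernatant alone, by 1 of 4 probes, with a highest signal of 13.2.

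Of 3 other Janus kinases and 3 other STATs, 4 were detected in the pellet and 1 in the supernatant. JAK1, the kinase of interferon and gp130 receptors, was well above background in the pellet by all 4 probes, with signals from 2629 to 23811, and by none in the supernatant, at least 724-fold higher before scaling and 16.5-fold after it. TYK2, also used by interferon receptors, was read on both arrays by 1 of its 2 probes, with 754 in the pellet and 891 in the supernatant, a value of -3.75. The other TYK2 probe was detected in the pellet alone, with signals of 396 and 1.94, so the probes differ in direction before scaling. JAK3, the kinase of lymphoid cytokine receptors, was not detected. STAT2, which acts after interferon, and STAT6, which acts after interleukin-4, were detected in the pellet alone, at least 60.6-fold and 1.35-fold higher before scaling. STAT4 was detected in neither fraction.

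The 4 other SOCS genes on the array were all detected in the pellet. SOCS4 and SOCS7 reached only 17.9 and 15.9 there, close to the 13.1 of SOCS3, which was not called. SOCS1 was well above background on both arrays by 2 of 3 probes, at mean signals of 21.6 and 21.9 and a value of -3.53, and SOCS5 stood at 0.97. SOCS4 and SOCS7 were detected in the pellet alone, with bounds of 1.98-fold and 1.76-fold. All 8 genes on the list of phosphatases and PIAS proteins were detected in the pellet and 6 in the supernatant. PIAS1 stood at 2.50, PIAS3 at 1.85, PTPN6 at 0.42, PTPN11 at -0.06, PIAS4 at -0.21 and PTPN1 at -1.15. PTPN2 and PIAS2 had bounds of 46.8-fold and 6.99-fold.

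Adaptors and co-activators, and transcription factors of milk gene control, were all detected in the pellet, 9 of 9 and 7 of 7. Among adaptors and co-activators, NMI, which binds STATs, stood at 5.37, NCOA1 at 2.75, SH2B1 at 1.03 (from probes at -0.73 and 2.79), GAB1 at 0.36, CREBBP at -1.66 and SHC1 at -1.95. The SHC1 value came from 1 of 3 probes, with signals of 39.6 and 13.4. Another SHC1 probe gave 4820 in the pellet and was not well above background in the supernatant. GAB1 was likewise measured by 1 of 2 probes, at 173 and 11.9, while the other gave 1150 in the pellet without a supernatant call. GRB2 and GAB2 had bounds of 46.2-fold and 22.7-fold. Of the listed transcription factors of milk gene control, YY1 stood at 5.45, NFIB at 5.43 and CEBPB at -0.06. GATA3 stood at 3.07 (from probes at 0.77 and 5.37) and the glucocorticoid receptor NR3C1 at 2.34 (from probes at -0.44 and 5.13). The hormone receptors PGR and ESR1 were detected in the pellet alone, with bounds of 10.3-fold and 2.06-fold.

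Of 9 STAT5 targets on the array, 8 were detected in the pellet and 4 in the supernatant. The casein genes CSN2 and CSN1S1 stood at 7.17 and 6.77, beside 7.52 for ELF5 and -1.68 for STAT5A. Their probes ran from 5.71 to 9.31 for CSN2 and from 4.25 to 8.99 for CSN1S1. PIM1, a survival kinase, stood at 2.69 and the cell cycle gene CCND1 at -0.26. BCL6 and AKT1 were detected in the pellet alone, at least 51.4-fold and 49.1-fold higher before scaling. TNFSF11 was detected in neither fraction.

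**Figure D4:**
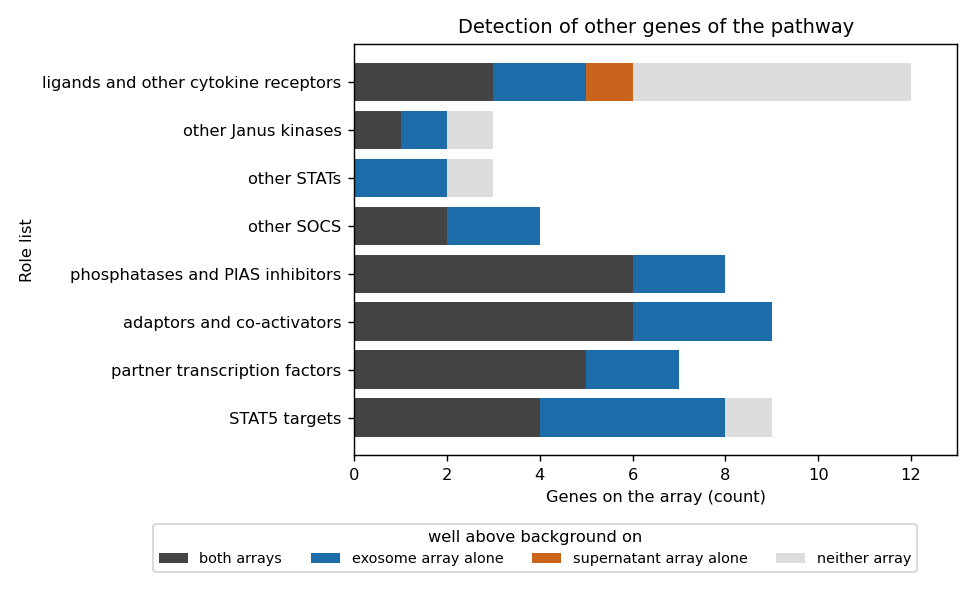
Number of genes on the array in each of 8 role lists, split by whether any probe was well above background on both arrays, on the exosome array alone, on the supernatant array alone or on neither. The 3 other STATs have no gene on both arrays, and LEPR is the single gene on the supernatant array alone.

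Lists of marker genes for cell types that milk could hold were read in the same way. All 9 markers of mammary epithelium were detected in the pellet and 6 in the supernatant, with a median of 5.47 relative to the median gene. Of 8 leukocyte markers 4 were detected, all on both arrays, at a median of -1.73, and CD3E, ITGAM, CXCR2 and CSF3R were well above background on neither. Summed over each gene's brightest probe, detected or not, the epithelial markers gave 681013 in the pellet and 2065 in the supernatant, and the leukocyte markers 1973 and 854. LALBA, with up to 313295, and CSN2, with up to 270033, made up most of the epithelial sum in the pellet. These sums set one array against the other for a list, not one list against another. Of 5 myoepithelial markers 4 were detected in the pellet and 3 in the supernatant, and of 5 fibroblast and endothelial markers 3 and 4. The medians over the 3 genes of each that both arrays measured were -2.54 and 0.75 relative to the median gene. ELF5, at 7.52, lay on the side of the epithelial median, and STAT5A, at -1.68, on the side of the leukocyte and myoepithelial medians. That STAT5A value comes from 1 of its 3 probes, and was 0.23 without a filter on dim probes. The epithelial median covers 6 of the 9 markers, from BTN1A1 at 0.77 to CSN2 at 7.17. The leukocyte median covers 4 genes, and the CD14 value in it comes from 1 of 3 probes. Another CD14 probe gave 760 in the pellet and was not well above background in the supernatant. The part of these cell types in the results was not tested.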

How the data were processed

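RNA of 2 whey fractions was measured on 1-colour Agilent arrays, 1 pooled sample each. The deposited intensity values come from Agilent Feature Extraction 10.7.3.1, which per the file headers subtracted background and removed spatial trends array by array, with no scaling of one array to the other. The authors' deposited log2 table differs from the log2 of these intensities by at most 0.001 over the 43602 single-spot probes, and has column medians of 4.81 (exosome) and 1.32 (supernatant). No source used here gives other steps. The software's 0 or 1 flags were used as deposited.

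Control spots were removed, as were 5 outlier spots of the exosome array and 2 of the supernatant array, no spot was saturated, and spots of 1 probe were averaged. Signals were put on a log2 scale and each array's 75th percentile over probes detected on both was subtracted, because 13.1% of probes were detected in the supernatant. Differences were averaged over the probes of a gene that both arrays detected, and bounds by the geometric mean over those the pellet detected. Gene symbols are those of the files. A RefSeq gene table (assembly ARS-UCD2.0) held the accession of 17 of the 22 probes and changed none of these symbols. Genes named only by an accession or a LOC number were left out of the 15715. The 10 genes, the 8 pathway lists and the marker lists were chosen with earlier results of these data known. The rule for named pathway genes took every gene measured on both arrays and the 2 largest bounds of each list. Genes detected on neither array, and LEPR, were named outside it, after their values were seen. One listed gene is not reported here and enters no list count. The printed probes were chosen after their values were seen. The size call was 2-fold. Alternatives were other scalings, normexp background correction (limma 3.58.1, offset 50), other filters on dim probes, a single (the brightest) probe for each gene, all outlier spots kept, the deposited value table and updated symbols. Python 3.11.15 was used, and the calculation was tested on simulated data. The simulated probes varied less than the real ones and all counted as detected on both arrays. The simulation thus checked the arithmetic and not the accuracy on these arrays. No test was run and the number of arrays limits the precision.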

Additional observations from a re-analysis of the deposited data

How the results depend on the processing

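The pellet count of 9 genes stayed at 9 with the stricter filter, outlier spots kept and updated symbols, and was 10 with the weaker flag, SOCS3 included. ELF5 stayed on the exosome side under all alternatives run. With scaling to the array medians, spike-in probes or none, the median difference of the 2 genes measured on both arrays moved from 0.97 to 2.94, 4.16 and 6.43. Without scaling STAT5A stood at 1.83 in place of -3.63, so 2 genes passed 2-fold to the pellet side and 0 to the other. With spike-in scaling STAT5A was at -0.44, and 0 genes passed 2-fold to the supernatant side. With the weaker flag 5 genes of the group and 43 of the 55 in the pathway lists were detected in the supernatant, against 66.5% of named genes. At least 2-fold higher in the pellet were then 2 genes of the group. The share of all genes past 2-fold was not counted in that setting, where the median gene stood at -2.07. With the stricter filter, at 4 times the lowest well-above-background signal, 11 pathway genes were detected in the supernatant in place of 28, against 8.53% of named genes. Without a filter on dim probes 4 genes passed 2-fold to the pellet side and 3 to the other, and STAT5A stood at 0.23 relative to the median gene, its other probes then entering at supernatant background. The share of all genes was not counted there either, and the median gene stood at -2.65. Most of these values set a pellet signal against supernatant background, so the counts say little about the genes. With normexp correction it stood at -0.93 and with the weaker flag at -0.95, both inside 2-fold. No paired analysis was possible because each fraction has 1 array. No array could be left out. Of the group's 22 supernatant signals, 20 were not well above background and give bounds or no value.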
